A study of Mus musculus with 8 samples.

Results

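The genes described here are 40 mouse complement, coagulation and fibrinolysis genes whose products are plasma proteins made largely by the liver, chosen as a fixed list of symbols. All 40 were found among the gene identifiers of the deposited table, and 39 had a usable estimate in every library, out of 48323 gene symbols in all. The gene left out is Cfb, complement factor B, which carried a failed estimate in LD-FA replicate 1. The 39 genes were followed over 8 liver RNA-seq libraries from C57BL/6 mice of wild type genotype, sampled after 30 weeks of exposure. Constant light with PM2.5 (LL-PM2.5), a light/dark cycle with PM2.5 (LD-PM2.5), constant light with filtered air (LL-FA) and a light/dark cycle with filtered air (LD-FA) had 2 libraries each. PM2.5 is fine particulate matter, the inhalable fraction of air pollution that reaches the alveoli, and constant light removes the daily light signal that entrains the circadian clock. The labels name no sex, no age and no clock time of collection, and do not say whether a group's libraries are from different mice, so the p-values can reflect technical spread alone.

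Complement is a cascade of plasma proteases in which antibody, sugar or spontaneous activation converges on cleavage of C3, after which C5 to C9 assemble a pore in the target membrane. Coagulation is a parallel cascade of vitamin K dependent proteases and cofactors that ends in thrombin, which turns fibrinogen into fibrin, while antithrombin, protein C and protein S hold it back and plasmin dissolves the clot. Hepatocytes secrete most of these proteins, and several of their genes, fibrinogen foremost, belong to the acute phase response that interleukin-6 induces in the liver through STAT3 and C/EBP factors.

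The promoters of 6 members named below are shown because each holds the letters of a liver or acute phase motif described below. These promoters do not stand for the other members. They come from the RefSeq promoter table on GRCm38.p6, are written 5′ to 3′ on the gene's strand, and run from 250 bases before the RefSeq start up to that start, or up to the GENCODE start where it lies further upstream. They cover chr3:83025903-83026075 (+) for Fga, chr3:83049864-83050113 (−) for Fgb, chr3:83007474-83007723 (+) for Fgg, chr2:35061439-35061662 (−) for Hc, chr15:6445096-6445326 (+) for C9 and chrX:59999214-59999463 (+) for F9. Capitals mark the letters of a searched motif on either strand.
Fga: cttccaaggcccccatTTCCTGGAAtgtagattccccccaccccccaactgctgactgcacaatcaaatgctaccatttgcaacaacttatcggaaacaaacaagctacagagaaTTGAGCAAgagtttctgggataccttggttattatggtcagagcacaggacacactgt
Fgb: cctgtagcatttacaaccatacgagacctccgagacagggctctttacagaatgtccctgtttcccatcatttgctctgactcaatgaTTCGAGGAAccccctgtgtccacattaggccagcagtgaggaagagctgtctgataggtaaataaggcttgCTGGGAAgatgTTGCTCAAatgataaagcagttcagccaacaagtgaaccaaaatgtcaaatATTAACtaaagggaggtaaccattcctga
Fgg: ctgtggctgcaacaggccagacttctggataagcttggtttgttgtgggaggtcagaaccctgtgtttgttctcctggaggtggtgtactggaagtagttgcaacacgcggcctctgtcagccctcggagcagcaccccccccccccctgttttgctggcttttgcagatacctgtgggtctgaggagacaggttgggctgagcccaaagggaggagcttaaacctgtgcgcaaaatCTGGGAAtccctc
Hc: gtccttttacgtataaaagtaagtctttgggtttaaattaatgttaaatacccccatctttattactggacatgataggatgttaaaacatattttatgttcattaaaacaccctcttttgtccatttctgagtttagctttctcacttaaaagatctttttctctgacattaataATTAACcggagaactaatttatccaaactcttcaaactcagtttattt
C9: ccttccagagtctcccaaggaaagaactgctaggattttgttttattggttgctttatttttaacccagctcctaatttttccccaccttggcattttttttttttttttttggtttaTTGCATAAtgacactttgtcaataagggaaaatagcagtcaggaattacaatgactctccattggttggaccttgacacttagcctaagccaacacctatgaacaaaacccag
F9: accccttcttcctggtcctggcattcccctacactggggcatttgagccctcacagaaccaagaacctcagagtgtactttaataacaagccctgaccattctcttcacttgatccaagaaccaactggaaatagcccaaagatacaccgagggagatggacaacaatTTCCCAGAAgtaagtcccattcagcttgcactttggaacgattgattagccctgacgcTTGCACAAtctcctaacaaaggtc

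Each motif was searched on both strands in promoters of 300 bases, 1 per gene, of which 33 members had an entry. C4b was among the members without one. The HNF1 half-site GTTAAT, named after a hepatocyte transcription factor, was found in 12 of the 33 (36.4%), against 7.2% of all 27025 promoters. The C/EBP letters TTGCNNAA were found in 11 (33.3%), against 10.8% of all promoters. The STAT letters TTCNNNGAA were in 8 (24.2%), against 8.47% of all, and the interleukin-6 element CTGGGAA in 7 (21.2%), against 11.1%. The D-box TTATGNAA, bound by clock-controlled PAR bZIP factors, was in 3 (9.09%), against 3.52%, and the E-box CACGTG, bound by CLOCK and BMAL1, in 0 of 33, against 7.24%. A C/EBP match can overlap a D-box match, as in C9, where TTGCATAA at position -132 from the RefSeq start fits the C/EBP letters on one strand and the D-box on the other. In F9 the STAT match TTCCCAGAA at -82 overlaps the interleukin-6 element TTCCCAG on the other strand. In Fgb, STAT (-162), interleukin-6 (-91), C/EBP (-80) and HNF1 (-29) letters follow one another, while Hc holds the HNF1 letters alone, at -74. In Fga the STAT and C/EBP letters are shown, and an HNF1 match at -43 lies past the printed stretch. These matches describe letters in a window and are not evidence that a factor binds there.

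The libraries held 22214720 to 31819109 assigned fragments, and the tissue label matched the liver: the 5 measured hepatocyte markers of 7 summed to 14929 to 20230 FPKM (fragments scaled to transcript length and library depth), while Alb and Hnf4a had no usable estimate. LD-FA replicate 1, LL-PM2.5 replicate 2 and LD-PM2.5 replicate 1 carried pancreas transcripts, whose 7 markers summed to 3108, 309 and 112 FPKM in that order, against 17.8 to 34.7 FPKM in the other 5 libraries. Muscle markers, all 6 measured, summed to 459 FPKM in the first LL-FA library and to 237 and 26.4 FPKM in the LD-FA pair, against 0.512 to 1.2 FPKM elsewhere. The 5 adipocyte markers summed to 53.6 FPKM in the same LL-FA library, against 7.14 to 14.8 in the others. The 5 macrophage markers summed to 82.3 to 127 FPKM, the 5 liver endothelium markers to 63.4 to 78.8 and the 5 platelet markers to 1.2 to 2.24 FPKM. In bulk tissue, fewer cells of a type and less RNA per cell cannot be told apart. Values within a gene are given as CPM, fragment counts scaled to a fixed library total with TMM factors, on which the tests rest, and levels between genes as FPKM.

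The members were among the more abundant liver transcripts. The fibrinogen gamma chain Fgg had the highest mean level, 2093 FPKM, rank 23 of the 11316 genes tested, and Fga and Fgb, the alpha and beta chains, followed at 1803 and 1130 FPKM, with vitronectin (Vtn), a plasma and matrix protein that blocks the membrane pore, between them at 1254. Among the anticoagulants antithrombin (Serpinc1) led with 1073 FPKM, and in the contact system Kng1, kininogen, the bradykinin precursor, with 871. C3 averaged 900 FPKM, prothrombin (F2) 792 and plasminogen (Plg), the precursor of plasmin, 793 FPKM. Within the terminal pathway C8g, the gamma chain of C8, had the highest mean, 355 FPKM, and among the recognition genes the mannose-binding lectin Mbl2, with 238. The lowest members were Cfp, properdin, an activator of the alternative pathway made mainly by leukocytes, at 12.7 FPKM, then Masp1, a lectin pathway protease, at 19.0, protein S (Pros1) at 19.7 and factor XI (F11) at 21.7. On chromosome 8, F7 and F10, factors VII and X, lie 1498 bases apart, and F7 held 0.213 to 0.273 of the FPKM of F10 in every library. The 3 fibrinogen genes lie side by side on chromosome 3, with 11026 bases between Fgg and Fga and 6513 between Fga and Fgb, and their protein is built from equal numbers of the chains. In fragments, the ratio of Fgb to Fga ran from 0.927 to 1.21 and that of Fgg to Fga from 0.766 to 0.994 over the 8 libraries.

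Across both kinds of air, constant light went with lower fitted values for most members. Averaged over air, 35 of the 39 had a negative log2 fold change for constant light over the light/dark cycle, and 4 were positive (10.3%), against 51.3% of all tested genes. The median over members was -0.14, against 0 over all genes. None passed the test across all genes (edgeR quasi-likelihood, Benjamini-Hochberg adjusted p of at least 0.331), and 0% of the 11316 genes did. DESeq2 called 2 members, C4b (adjusted p = 0.000312) and Hc (adjusted p = 0.0049), and 0.813% of all genes, and limma called 0 members. Both genes also passed edgeR's test with no filter on low FPKM, as did 1.26% of the 23030 genes then tested. At an unadjusted p under 0.05 there were 7 members, all lower (17.9%), against 3.48% of all genes in that direction and 5.66% in both. No member differed by 2-fold or more, and estimates ran from -0.62 to 0.30. For 5 members, C4b, C3, Hc, F9 and Fga, all 4 constant light libraries lay below all 4 light/dark libraries in CPM (12.8%), against 1.79% of all genes, and for 0 members above them, against 1.4%. In FPKM the groups by light of Hc, F9 and Fga overlapped, while those of C4b and C3 stayed apart. On that scale Hc read 139 in LL-FA 1 and 138 in LD-FA 2, and Fga 1686 and 1682. F9 read 88.0 FPKM in LL-PM2.5 1 and 71.1 in LD-FA 2. With single libraries left out, 5 to 12 members were positive, the most without LL-PM2.5 replicate 1, and the median stayed between -0.17 and -0.09. With neither LD-FA 1 nor LL-FA 1, which hold the most pancreas and muscle transcript, 13 were positive and the median was -0.09. The 7 at unadjusted p under 0.05 became 2 when LD-FA 1 was left out, 3 when LL-FA 2 was and 4 when LL-FA 1 was.

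**Figure D1:**
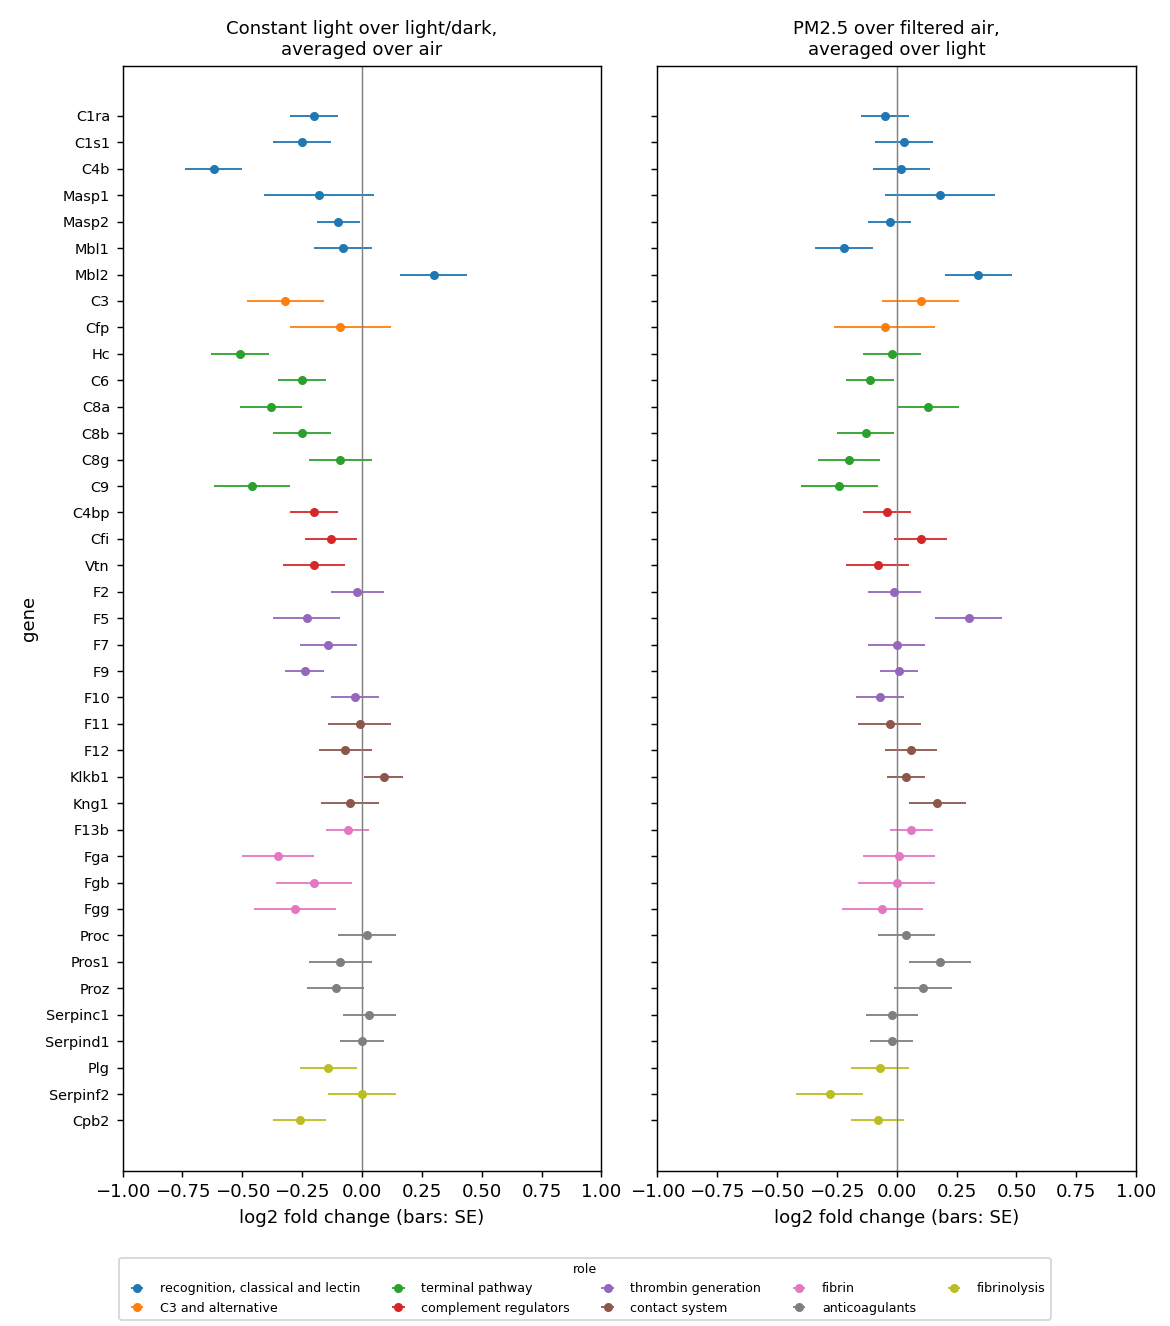
Log2 fold change of the 39 transcripts (x axis; bars are standard errors) for constant light over the light/dark cycle, averaged over air (left), and for PM2.5 over filtered air, averaged over light (right), with genes on the y axis coloured by role. On the left 35 of 39 points lie below 0, with C4b at -0.62 and Hc at -0.51 furthest out; on the right they lie on both sides, from -0.28 to 0.34.

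The classical pathway component C4b, which is cleaved to form part of the C3 convertase, showed the clearest separation by light. It stood at 945 and 884 CPM in LL-PM2.5 and 947 and 833 in LL-FA, against 1544 and 1227 CPM in LD-PM2.5 and 1474 and 1287 in LD-FA. All 4 constant light libraries were below all 4 light/dark libraries, in either air. The log2 fold change was -0.62 ± 0.12 (SE; edgeR adjusted p = 0.331). C4b lies on chromosome 17 (34728380 to 34743882, minus strand, GRCm38/mm10) near the closely similar C4a, which held 6.26 to 24.0 CPM. How the authors' counting split shared fragments is not given, and the values of both genes depend on that split. Of the other recognition genes, C1s1 and C1ra, proteases of the C1 complex with near copies in mouse, stood at -0.25 ± 0.12 and -0.20 ± 0.10, Masp1 at -0.18 ± 0.23, Masp2 at -0.10 ± 0.09 and Mbl1 at -0.08 ± 0.12. Mbl2 was the only one with a positive estimate, 0.30 ± 0.14 (edgeR adjusted p = 0.861).

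C3, the protein on which all activation routes converge, read 6578 and 6668 CPM in LL-PM2.5 and 7359 and 5074 in LL-FA, against 8656 and 8007 CPM in LD-PM2.5 and 7747 and 7633 in LD-FA. Its groups by light did not overlap, but LL-FA replicate 1 lay close under the lower LD-FA library, and the log2 fold change was -0.32 ± 0.16 (edgeR adjusted p = 0.863). Cfp, the other measured gene of the alternative pathway, stood at -0.09 ± 0.21.

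All 6 terminal pathway genes had negative estimates for constant light, with a median of -0.32, and 4 of them had an unadjusted p under 0.05, against 3.48% of all genes in that direction. Hc, which encodes C5, the first protein of the pore-forming stage and the source of the attractant C5a, read 876 and 994 CPM in LL-PM2.5 and 1042 and 954 in LL-FA, against 1548 and 1271 CPM in LD-PM2.5 and 1426 and 1273 in LD-FA. Every constant light library was below every light/dark library, at -0.51 ± 0.12 (edgeR adjusted p = 0.485). C9, whose copies polymerise into the pore, read 793 and 1047 CPM in LL-PM2.5 and 920 and 1151 in LL-FA, against 1288 and 1122 CPM in LD-PM2.5 and 1754 and 1227 in LD-FA. The groups overlapped, since LL-FA replicate 2 lay above LD-PM2.5 replicate 2, and the estimate of -0.46 ± 0.16 was -0.23 with neither LD-FA 1 nor LL-FA 1. C8a, the alpha chain of C8, read 1021 and 1317 CPM in LL-PM2.5 and 1134 and 987 in LL-FA, against 1617 and 1392 CPM in LD-PM2.5 and 1462 and 1313 in LD-FA (-0.38 ± 0.13, edgeR adjusted p = 0.837). C8b, the beta chain, encoded beside C8a on chromosome 4, stood at -0.25 ± 0.12 and C8g, on chromosome 2, at -0.09 ± 0.13, with 374 and 310 CPM in LL-PM2.5 and 340 and 456 in LL-FA, against 338 and 399 CPM in LD-PM2.5 and 432 and 406 in LD-FA. C6, which follows C5b in the assembly, stood at -0.25 ± 0.10 (edgeR adjusted p = 0.86). It stood at -0.50 ± 0.15 under PM2.5 but at -0.01 ± 0.15 in filtered air. Its libraries are given with the PM2.5 comparisons.

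**Figure D2:**
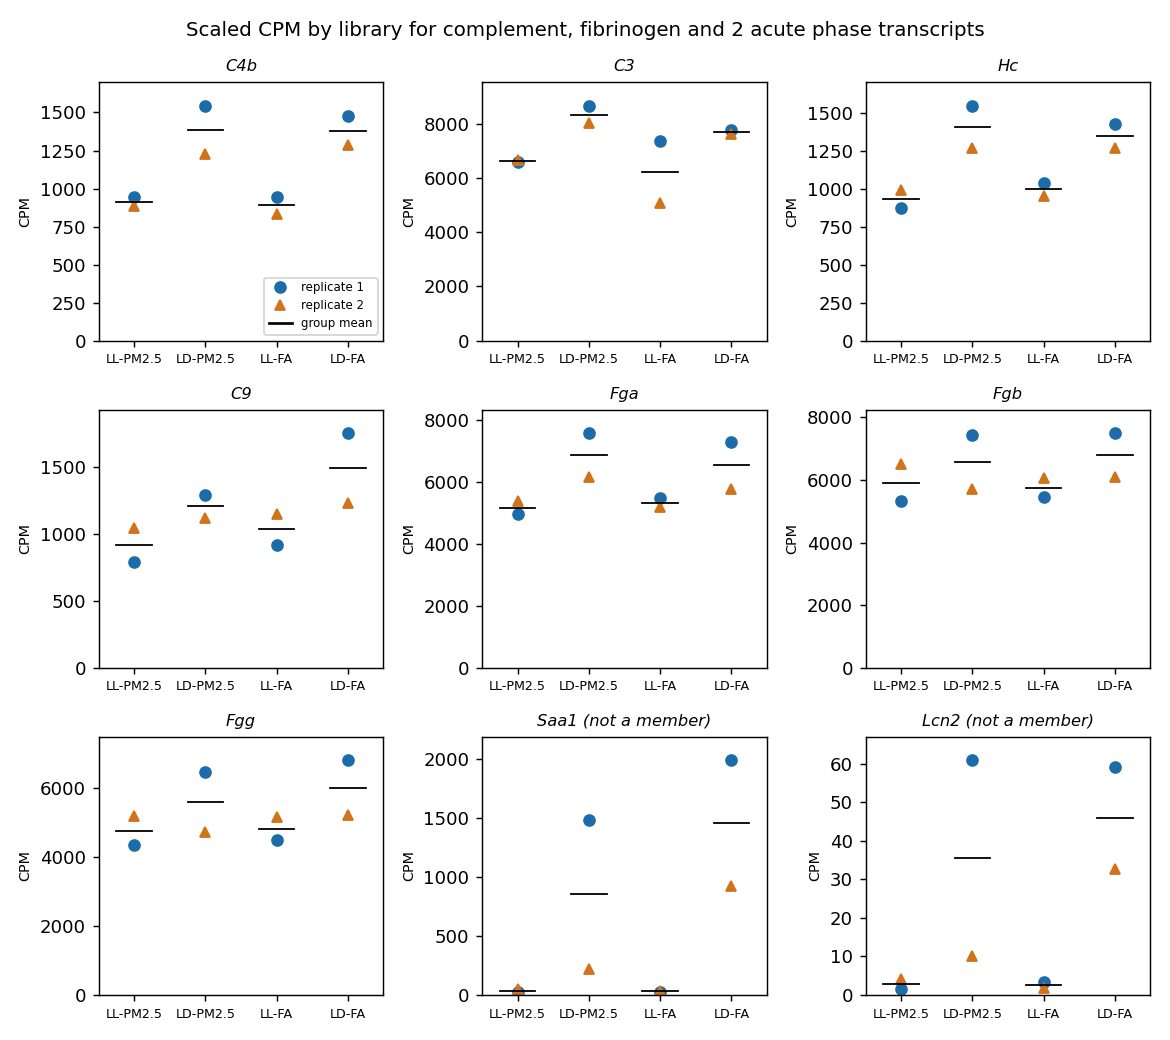
Scaled CPM (y axis, from 0) of 7 members and of the acute phase genes Saa1 and Lcn2 in each library, by group on the x axis; circles are replicate 1, triangles replicate 2 and lines group means (n = 2). C4b, C3, Hc and Fga lie lower in both constant light groups than in both light/dark groups, and Saa1 reads 21.1 to 50.2 CPM in constant light, against 222 to 1992 CPM in the light/dark cycle.

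The 3 complement regulators had a median of -0.20. C4bp, a cofactor in the inactivation of C4b, read 755 and 717 CPM in LL-PM2.5 and 727 and 748 in LL-FA, against 892 and 748 CPM in LD-PM2.5 and 892 and 849 in LD-FA (-0.20 ± 0.10). Cfi, the protease that cleaves C3b and C4b, read 803 and 1037 CPM in LL-PM2.5 and 782 and 792 in LL-FA, against 912 and 937 CPM in LD-PM2.5 and 995 and 887 in LD-FA (-0.13 ± 0.11). For C4bp, 1 constant light library or more reached into the light/dark range. For Cfi, LL-PM2.5 replicate 2 lay above every light/dark library, and the other constant light libraries lay below them all. Vtn stood at -0.20 ± 0.13 and read 2461 and 2779 CPM in LL-PM2.5 and 2478 and 2863 in LL-FA, against 2805 and 2993 CPM in LD-PM2.5 and 3526 and 2822 in LD-FA, with overlapping groups.

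Of the fibrin genes, Fga had the largest estimate for constant light. It read 4950 and 5358 CPM in LL-PM2.5 and 5455 and 5183 in LL-FA, against 7567 and 6157 CPM in LD-PM2.5 and 7278 and 5774 in LD-FA. The 4 constant light libraries were all below the 4 light/dark ones, and the log2 fold change was -0.35 ± 0.15 (edgeR adjusted p = 0.86). Fgg read 4335 and 5185 CPM in LL-PM2.5 and 4490 and 5152 in LL-FA, against 6461 and 4719 CPM in LD-PM2.5 and 6810 and 5220 in LD-FA (-0.28 ± 0.17). Fgb read 5323 and 6505 CPM in LL-PM2.5 and 5449 and 6066 in LL-FA, against 7451 and 5708 CPM in LD-PM2.5 and 7505 and 6091 in LD-FA (-0.20 ± 0.16). For Fgg and Fgb the highest values were those of replicate 1 in both light/dark groups, and replicate 2 of LD-PM2.5 lay within the constant light range. For Fgb, replicate 2 of LD-FA lay within that range as well. F13b, the carrier subunit of the factor that cross-links fibrin, stood at -0.06 ± 0.09.

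The 5 thrombin generation genes had a median of -0.14. F9, factor IX, lacking in hemophilia B, read 308 and 300 CPM in LL-PM2.5 and 282 and 290 in LL-FA, against 330 and 347 CPM in LD-PM2.5 and 363 and 349 in LD-FA. These narrow groups did not overlap, at -0.24 ± 0.08 (edgeR adjusted p = 0.812). Factor V (F5), the cofactor of factor Xa, stood at -0.23 ± 0.14, factor VII (F7) at -0.14 ± 0.12, factor X (F10) at -0.03 ± 0.10 and prothrombin (F2) at -0.02 ± 0.11. By air, F5 stood at -0.49 ± 0.20 under PM2.5 but at 0.03 ± 0.20 in filtered air. F2 read 1960 and 2114 CPM in LL-PM2.5 and 1861 and 2082 in LL-FA, against 1878 and 2108 CPM in LD-PM2.5 and 2160 and 2007 in LD-FA, with no separation. In the contact system F11, factor XII (F12) and Kng1 stood between -0.07 and -0.01 and prekallikrein (Klkb1) at 0.09 ± 0.08.

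The anticoagulants had a median of 0.00 for constant light. Serpinc1 read 2706 and 2982 CPM in LL-PM2.5 and 2719 and 2875 in LL-FA, against 2565 and 2840 CPM in LD-PM2.5 and 2835 and 2832 in LD-FA (0.03 ± 0.11). Protein C (Proc) stood at 0.02 ± 0.12, heparin cofactor II (Serpind1) at 0.00 ± 0.09, Pros1 at -0.09 ± 0.13 and protein Z (Proz) at -0.11 ± 0.12. Among the fibrinolysis genes, Plg read 3086 and 3343 CPM in LL-PM2.5 and 3126 and 3198 in LL-FA, against 3494 and 3132 CPM in LD-PM2.5 and 3897 and 3525 in LD-FA (-0.14 ± 0.12). Cpb2, a carboxypeptidase that slows fibrinolysis, read 426 and 508 CPM in LL-PM2.5 and 423 and 492 in LL-FA, against 544 and 495 CPM in LD-PM2.5 and 641 and 537 in LD-FA (-0.26 ± 0.11). Its groups overlapped only through LL-PM2.5 replicate 2 and LD-PM2.5 replicate 2, and alpha-2-antiplasmin (Serpinf2) stood at 0.00 ± 0.14.

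Acute phase transcripts outside the list stood lower in the same libraries. Saa1, serum amyloid A, read 21.1 and 50.2 CPM in LL-PM2.5 and 28.3 and 31.2 in LL-FA, against 1488 and 222 CPM in LD-PM2.5 and 1992 and 925 in LD-FA. All 6 listed acute phase genes were measured, and they summed to 3501 and 4063 CPM in LL-PM2.5 and 3639 and 4252 in LL-FA, against 9827 and 6872 CPM in LD-PM2.5 and 12099 and 7540 in LD-FA. In each light/dark group replicate 1 held more acute phase transcript than replicate 2. Replicate 1 was the higher library in LD-PM2.5 for 19 of the 39 members (48.7%), near the 50.8% of all genes. In LD-FA it was the higher one for 31 members (79.5%), against 50.5%. For 16 members (41.0%) it was the higher one in both groups, against 26.0% of all genes. The part of the acute phase level in the members' differences was not tested. LD-FA replicate 1 also holds the most pancreas transcript, and its part was likewise not tested.

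**Figure D3:**
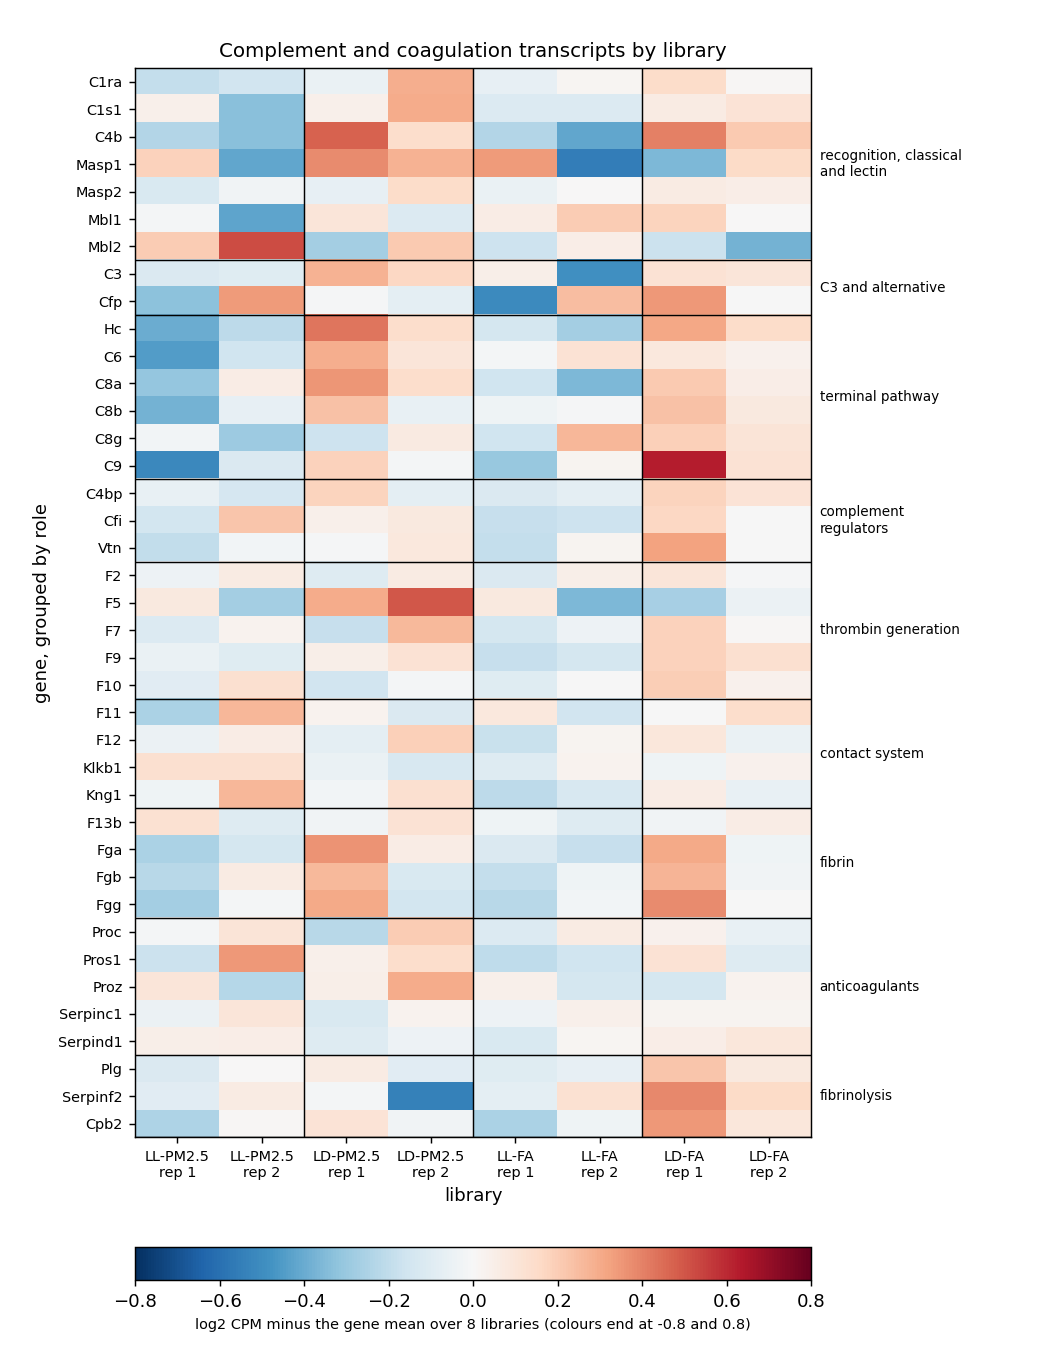
Log2 CPM of each of the 39 transcripts minus the gene's mean over the 8 libraries (colour, ending at -0.8 and 0.8), with genes on the y axis by role and libraries on the x axis by group. LD-FA replicate 1 holds the highest value of 12 members and LL-PM2.5 replicate 1 the lowest of 12. In the rows of C4b, C3, Hc, F9 and Fga every constant light library is below every light/dark one.

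Taken within filtered air, constant light over the light/dark cycle gave 34 negative and 5 positive members (12.8%), against 50.1% positive of all genes, and a median of -0.18. None passed the adjusted edgeR test (0% of all genes), and 3 were lower at unadjusted p under 0.05 (7.69%), against 1.55% of all genes in that direction and 2.74% in both. The CPM of LL-FA and LD-FA did not overlap, in the lower direction, for 23 members (59%), against 15.9% of all genes, and in the higher direction for Mbl2 alone, against 14.3%. On the FPKM scale the lower ones were 9 (23.1%), against 11.3% of all genes. The members of smallest p were C4b at -0.63 ± 0.17, F9 at -0.32 ± 0.11, Hc at -0.44 ± 0.16, Cpb2 at -0.36 ± 0.16 and C9 at -0.53 ± 0.23, each with an edgeR adjusted p of 1.0. The 3 became 0 when LD-FA 1 or LL-FA 2 was left out, with medians of -0.10 and -0.20, 1 when LL-FA 1 was and 6 when LL-PM2.5 1 was, which enters only through the shared estimate of spread.

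Under PM2.5, constant light over the light/dark cycle gave 27 negative and 12 positive members (30.8%), against 51.1% positive of all genes, with a median of -0.15. None passed the adjusted edgeR test (0% of all genes), and 4 were lower at unadjusted p under 0.05 (10.3%), against 5.68% of all genes in that direction and 9.23% in both. DESeq2 called Hc there (adjusted p = 0.0417) and 1.25% of all genes, and in the other 5 comparisons neither DESeq2 nor limma called a member. LL-PM2.5 and LD-PM2.5 did not overlap in CPM for 13 lower members (33.3%), against 20.2% of all genes, and for 2 higher ones, Klkb1 and Serpind1, against 19.1%. Hc stood at -0.59 ± 0.16 (edgeR adjusted p = 0.444), C4b at -0.60 ± 0.17, C6 at -0.50 ± 0.15, F5 at -0.49 ± 0.20 and C1ra at -0.30 ± 0.15. In both airs, 8 members (20.5%), against 3.53% of all genes, had constant light libraries below the light/dark ones without overlap: C4b, C3, Hc, C8a, C8b, C9, F9 and Fga. Without LL-PM2.5 replicate 1 the median under PM2.5 was -0.07.

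For PM2.5, the members showed no common direction. Averaged over light, 18 of the 39 were higher and 21 lower (49.5% of all genes higher), with a median of -0.01 and estimates from -0.28 to 0.34. None passed the adjusted edgeR test (smallest adjusted p = 0.484; 0.0177% of all genes), and 1 was higher at an unadjusted p under 0.05, against 5.54% of all genes in that direction and 10% in both. That gene is Mbl2, the circulating lectin that starts the lectin pathway, with 413 and 515 CPM in LL-PM2.5 and 296 and 413 in LD-PM2.5, against 319 and 372 CPM in LL-FA and 317 and 276 in LD-FA. The PM2.5 libraries overlapped those of filtered air, since LD-PM2.5 replicate 1 lay within the range of filtered air, and the log2 fold change was 0.34 ± 0.14 (edgeR adjusted p = 0.484). Its relative Mbl1 had the opposite sign, -0.22 ± 0.12, as did C8g (-0.20 ± 0.13) and Serpinf2 (-0.28 ± 0.14), while F5 stood at 0.30 ± 0.14. The count was 0 when LD-FA 1, LD-FA 2 or LD-PM2.5 2 was left out, 2 when LL-FA 1 or LD-PM2.5 1 was and 3 when LL-PM2.5 1 was. For no member did the 4 PM2.5 libraries stand apart from the 4 of filtered air, against 2.82% of all genes apart and higher and 2.86% apart and lower.

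In the light/dark cycle, PM2.5 over filtered air gave 17 positive members (48.4% of all genes positive) and a median of -0.05. None passed the adjusted edgeR test (0% of all genes), and 2 members had an unadjusted p under 0.05 (5.13%), against 11% of all genes, 1 higher (6.78% of all genes) and 1 lower (4.18%). F5 read 794 and 913 CPM in LD-PM2.5, against 538 and 626 CPM in LD-FA (0.55 ± 0.20, edgeR adjusted p = 0.438), so that both PM2.5 libraries were above both filtered air ones. Serpinf2, the main inhibitor of plasmin, read 910 and 634 CPM in LD-PM2.5, against 1201 and 1025 CPM in LD-FA (-0.53 ± 0.20, edgeR adjusted p = 0.438), likewise without overlap. F10 stood at -0.20 ± 0.14, Proz at 0.23 ± 0.17 and C9 at -0.31 ± 0.23. Neither of the 2 kept an unadjusted p under 0.05 once LD-FA 1 or LD-PM2.5 2 was left out. Without overlap in CPM there were 5 higher members, against 24.6% of all genes, and 8 lower ones, against 24.8%.

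In constant light, PM2.5 over filtered air gave 23 positive members (50.7% of all genes positive) and a median of 0.04. None passed the adjusted edgeR test (0% of all genes), and C6 was the 1 member at unadjusted p under 0.05, being lower, against 2.71% of all genes in that direction and 4.83% in both. C6 read 293 and 358 CPM in LL-PM2.5, against 396 and 434 CPM in LL-FA (-0.35 ± 0.15, edgeR adjusted p = 0.989). The count was 0 when any filtered air library was left out and 5, 4 of them higher, without LL-PM2.5 replicate 1. Mbl2 stood at 0.43 ± 0.20, Mbl1 at -0.34 ± 0.17 and Pros1 at 0.29 ± 0.18. Kng1, whose near copy Kng2 makes the split of its fragments uncertain, read 2449 and 3006 CPM in LL-PM2.5, against 2167 and 2286 CPM in LL-FA (0.29 ± 0.17), and in the light/dark cycle 2461 and 2742 CPM in LD-PM2.5, against 2611 and 2400 CPM in LD-FA. Groups stood apart in CPM for 6 higher members, against 15.1% of all genes, and for 4 lower ones, against 14.9%.

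The interaction asks whether the PM2.5 difference depended on light. None of the 39 passed (smallest edgeR adjusted p = 0.843; 0% of all genes), and C6 was the 1 member at unadjusted p under 0.05, against 2.91% of all genes lower and 4.88% in both directions. No member had one when LL-FA 1, LL-PM2.5 1 or either LD-FA library was left out, and another member, higher, had one when LD-PM2.5 1 was. C6 had an interaction of -0.49 ± 0.21: it was lower with PM2.5 in constant light, as given above, and read 491 and 429 CPM in LD-PM2.5, against 425 and 411 CPM in LD-FA. The other members of smallest p were F5 at -0.51 ± 0.28, with 683 and 535 CPM in LL-PM2.5, against 682 and 504 CPM in LL-FA, and Serpinf2 at 0.49 ± 0.29, with 864 and 964 CPM in LL-PM2.5, against 872 and 1002 CPM in LL-FA. For both genes the constant light groups overlapped. Next came Klkb1 at 0.25 ± 0.17 and F10 at 0.28 ± 0.20, which read 547 and 634 CPM in LL-PM2.5 and 522 and 574 in LD-PM2.5, against 544 and 579 CPM in LL-FA and 668 and 595 in LD-FA. The interaction was positive for 26 members (50.4% of all genes) with a median of 0.09, which was -0.03 when LD-FA 1 was left out and 0.16 when LL-PM2.5 1 was. The comparisons share libraries: LD-FA serves as the control of both single exposures, so their values are given side by side only.

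Other genes of the same pathways were taken from a list of 52, of which 36 were tested. None passed the adjusted edgeR test in any of the 7 comparisons. For constant light averaged over air, 8 of the 36 had an unadjusted p under 0.05 (22.2%), against 5.66% of all genes, 7 lower (3.48% of all genes) and 1 higher, F3, tissue factor, which starts coagulation, at 0.54 ± 0.19. F3 was low, at 2.37 to 5.4 CPM over the libraries, and LD-FA 1 at 3.46 lay close under LL-FA 2 at 3.7. The count at unadjusted p under 0.05 was 6 (16.7%; 9.23% of all genes) for constant light under PM2.5 and 1 (2.78%; 2.74%) in filtered air. For PM2.5 it was 1 (2.78%; 11%) in the light/dark cycle, 4 (11.1%; 4.83%) in constant light and 4 (11.1%; 10%) averaged over light, and for the interaction 0 (4.88% of all genes). Fgl1, a fibrinogen-like protein secreted by hepatocytes, read 174 and 356 CPM in LL-PM2.5 and 194 and 220 in LL-FA, against 610 and 276 CPM in LD-PM2.5 and 899 and 441 in LD-FA (-1.22 ± 0.35, edgeR adjusted p = 0.665). LL-PM2.5 replicate 2 lay above LD-PM2.5 replicate 2, so the groups overlapped, and in filtered air alone Fgl1 stood at -1.70 ± 0.50. Next in that comparison was Cd55, a membrane inhibitor of complement, at -0.29 ± 0.14. Averaged over air, F8, factor VIII, made mostly by endothelium, stood at -0.37 ± 0.11. Thbd, thrombomodulin, the endothelial cofactor of protein C activation, read 4.92 and 5.98 CPM in LL-PM2.5, against 15.0 and 8.46 CPM in LD-PM2.5 (-1.11 ± 0.36), and Cpn2, a carboxypeptidase N subunit, stood at -0.38 ± 0.12 there. For PM2.5, C4a stood at 1.20 ± 0.36 in the light/dark cycle, at 15.3 and 24.0 CPM in LD-PM2.5, against 6.26 and 10.8 CPM in LD-FA, while C4b stood at 0.00 ± 0.17. Thbd stood at 0.81 ± 0.35 in that comparison. Kng2 had the smallest p for PM2.5 in constant light, at 0.52 ± 0.16, followed by Ggcx, the vitamin K dependent carboxylase, with 57.2 and 51.8 CPM in LL-PM2.5, against 71.2 and 63.3 CPM in LL-FA (-0.30 ± 0.12). Averaged over light Kng2 stood at 0.35 ± 0.12, and F2r, a thrombin receptor, stood at -0.32 ± 0.11. The interaction was -1.02 ± 0.50 for C4a and -1.0 ± 0.50 for Thbd.

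The choice of unit altered how close the replicates of a member looked. In CPM, replicate 1 was above replicate 2 in all 4 groups for 1 of the 39 members, against 4.21% of all genes; in the deposited FPKM this held for 13 members, against 21.9% of all genes. F9, the member of lowest GC content, read 308 and 300 CPM in LL-PM2.5 but 88.0 and 59.3 FPKM, and 363 and 349 CPM in LD-FA but 95.7 and 71.1 FPKM. The factor that turns a member's CPM into FPKM differed between the replicates of a group along transcript GC content, with a Spearman rho between -0.86 and -0.81 in the 4 groups across the 39 members, and between the same bounds across 11297 genes. The same rho for CPM itself was between -0.29 and 0.17 for the members. With transcript length in place of GC content, rho for the members' CPM was 0.74 in LL-FA and -0.45 in LD-FA. It was 0.28 in LL-PM2.5 and 0.21 in LD-PM2.5. The part of transcript length in the light comparisons was not tested. These are correlations across genes, which are not independent replicates, and no label says how the FPKM were corrected.

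**Figure D4:**
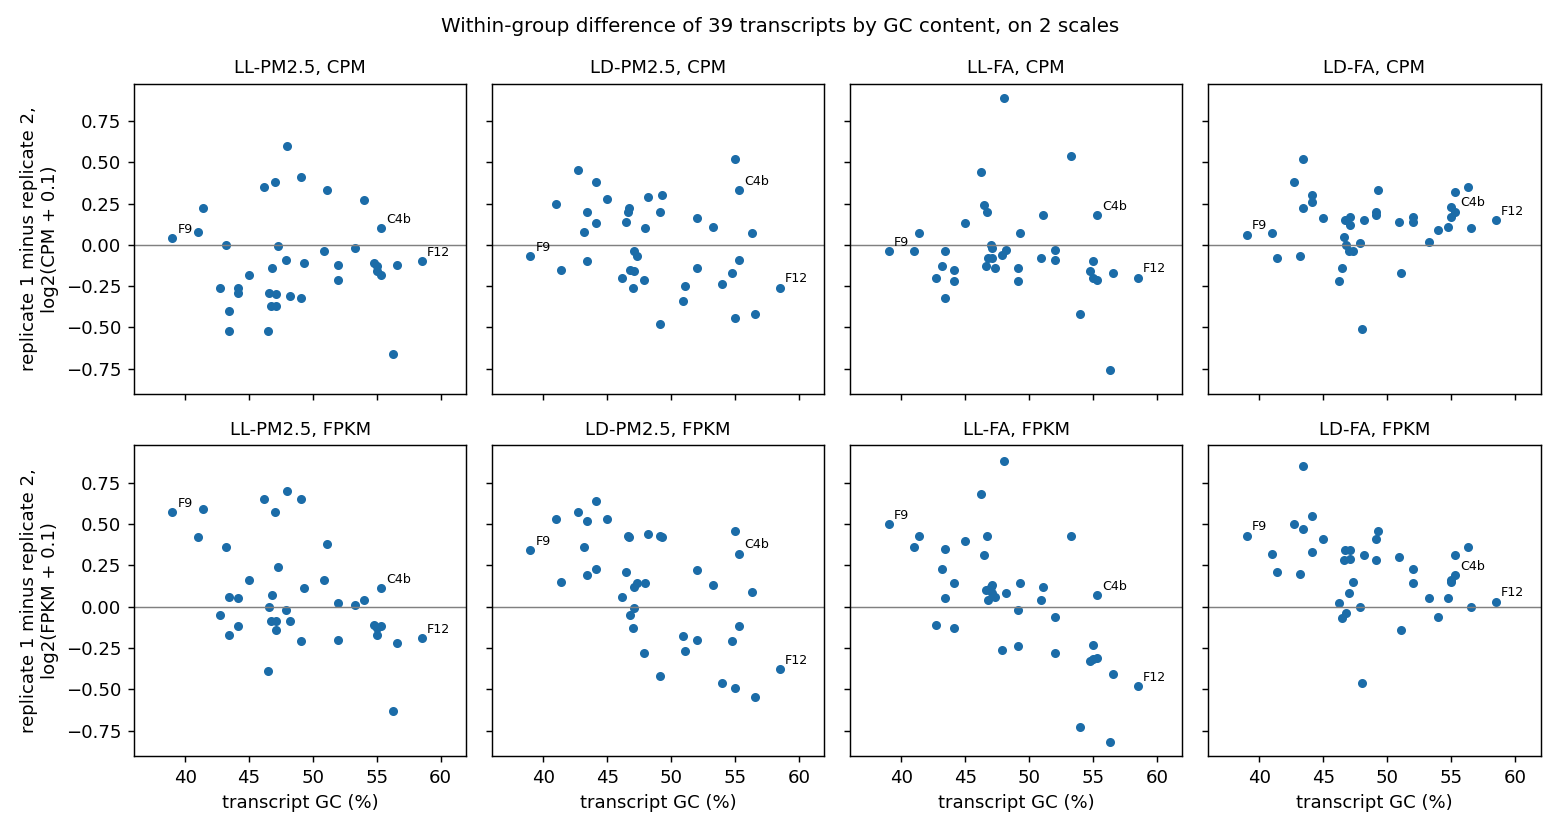
Difference between replicate 1 and replicate 2 of each group (y axis, log2 of CPM + 0.1 in the upper row and of FPKM + 0.1 in the lower) against transcript GC content in percent (x axis), 1 point for each of the 39 transcripts. In FPKM the difference falls with GC content in all 4 groups (rho -0.41 to -0.66), while in CPM rho lies between -0.29 and 0.17.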

How the data were processed

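RNA of snap-frozen liver was sequenced in 8 libraries. The submitters' processing notes name STAR, Cufflinks, Cuffdiff and the build mm10, without versions or options. Per the file headers, the deposited table gives for each gene and library the estimated count of fragments that the authors' tools assigned, and FPKM scaled by the authors to transcript length and depth. Of the fragment values above 0, 97.4% lay within 0.01 of a whole number, and all were rounded. Genes with a status other than OK in any library, 47 of 48432, with 1.07% of the fragments, were left out. Symbols and positions follow GENCODE vM21 (GRCm38/mm10), and promoters RefSeq.

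Testing covered the 11316 genes that reached 1 FPKM in 2 or more libraries, and used edgeR 4.0.16 (R 4.3.3; TMM scaling, quasi-likelihood F test, 4 group means, 4 residual degrees of freedom). P-values are two-sided and were adjusted by Benjamini-Hochberg across the whole tested table, with calls under 0.05. Each SE was obtained from the log2 fold change and its F value (size over root F), with a median of 0.19 between groups of 2 and 0.13 in averages. The spread between libraries was a biological coefficient of variation of 21.4%, which with 22214720 to 31819109 fragments per library limits the precision. The test was also run on counts simulated from the fitted data, with planted changes larger than any member showed. That run does not bear on changes of the size seen here. CPM are fragment counts scaled to a fixed library total with TMM factors. Figures used Python 3.11.15 and matplotlib 3.10.9.

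Named members are those past the threshold in a comparison, else the 5 of smallest unadjusted p, and in each role the member of highest mean FPKM. Of the wider list, the 2 genes of smallest p per comparison are named. Their libraries are given in CPM where the rule said FPKM, because the 2 units differed within groups along GC content. Genes named beyond this rule, to complete a role or to show a limit, were chosen with their values known. The members and lists were chosen with earlier results of these data known, and no list was tested as a set.

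Alternatives were median-of-ratios scaling, no FPKM filter, a filter at 5 FPKM, DESeq2 1.42.0, limma 3.58.1 on log2(FPKM + 1) and log2(FPKM + 0.1), a replicate block, leaving out LD-FA 1 together with LL-FA 1, and each library left out. Offsets following transcript GC content, with and without the block, were added after seeing the data.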

Additional observations from a re-analysis of the deposited data

Results flagged for a closer look

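For 4 members the PM2.5 and filtered air libraries stood apart in CPM in both light regimes, in opposite directions, which 4.56% of all 11316 tested genes also did. The terminal pathway gene C6 was lower with PM2.5 in constant light and higher with it in the light/dark cycle, with an interaction of -0.49 on the log2 scale. Factor IX (F9) had 308 and 300 CPM in LL-PM2.5, against 282 and 290 CPM in LL-FA, and 330 and 347 CPM in LD-PM2.5, against 363 and 349 CPM in LD-FA, an interaction of 0.16. Prekallikrein (Klkb1) had 519 CPM in both LL-PM2.5 libraries, against 443 and 485 CPM in LL-FA, and 459 and 435 CPM in LD-PM2.5, against 464 and 487 CPM in LD-FA, an interaction of 0.25. Heparin cofactor II (Serpind1) had 933 and 937 CPM in LL-PM2.5, against 827 and 913 CPM in LL-FA, and 839 and 878 CPM in LD-PM2.5, against 936 and 962 CPM in LD-FA, an interaction of 0.25. For Serpind1 the light comparison was also opposite in PM2.5 and filtered air, as for 4.67% of all genes. None of these interactions passed the edgeR test across all genes (adjusted p of at least 0.843).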

How the results depend on the processing

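Over 18 alternatives, the 35 values of named members kept their sign in all 630 cases, and 5 newly passed the adjusted threshold. These values were chosen for their small p in the same data, and the alternatives share libraries, so a kept sign was likely beforehand. C4b and Hc passed for constant light averaged over air, 2 members each, with no FPKM filter (adjusted p 0.00227 and 0.022) and with DESeq2 (0.000312 and 0.0049), and Hc, 1 member, for LL-PM2.5 over LD-PM2.5 with DESeq2 (0.0417). Their adjusted p under all other alternatives, limma and single libraries left out included, was above 0.05. Small moves of the counts at unadjusted p under 0.05 are left out. For constant light averaged over air such moves went from 7 to 9 with no filter, 8 lower and 1 higher, and to 5 with GC offsets. DESeq2 gave 9 lower members and 1 higher one there. The other counts moved as follows, and the cause was not tested. For LD-PM2.5 over LD-FA they were 1 with limma at either pseudocount, 0 without the 2 libraries LD-FA 1 and LL-FA 1, and 1 with GC offsets and the block. For LL-FA over LD-FA they were 5 with no filter, 6 with DESeq2, 1 with limma at either pseudocount and 0 without the 2 libraries. For LL-PM2.5 over LL-FA they were 2 with DESeq2 and 0 with limma, without the 2 libraries, with the replicate block, and with GC offsets and the block. For LL-PM2.5 over LD-PM2.5 they were 2 without the 2 libraries. For PM2.5 averaged over light they were 3 with no filter, 2 with DESeq2, and 0 with limma, without the 2 libraries or with GC offsets. For constant light averaged over air they were 4 with limma and 4 without the 2 libraries. For the interaction they were 0 with no filter, limma, the replicate block, GC offsets with or without the block, and without the 2 libraries. Medians without the 2 libraries were 0.04 for LD-PM2.5 over LD-FA, -0.06 for LL-FA over LD-FA and -0.04 for the interaction.

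With single libraries left out, a group of 1 being assumed to vary like the others, no member was called (0 throughout). Unadjusted counts and medians ran from 0 to 2 and -0.08 to 0.04 for LD-PM2.5 over LD-FA, 0 to 6 and -0.25 to -0.10 for LL-FA over LD-FA, 0 to 5 and -0.04 to 0.08 for LL-PM2.5 over LL-FA, and 3 to 6 and -0.15 to -0.07 for LL-PM2.5 over LD-PM2.5. They ran from 0 to 3 and -0.04 to 0.02 for PM2.5 averaged over light, 2 to 10 and -0.17 to -0.09 for constant light averaged over air, and 0 to 1 and -0.03 to 0.16 for the interaction. In CPM, libraries with the same replicate number did not deviate together (correlations of -0.59 to 0.33), so the numbers are not taken as pairs. In FPKM they did share a difference. Replicate 1 minus replicate 2 fell with GC content in all 4 groups (Spearman rho -0.52 to -0.31 across 11297 genes). With the replicate block C4b stood at -0.61 and Hc at -0.51 for constant light averaged over air, and the unadjusted count was 5.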
